A study of Homo sapiens with 24 samples.

Results

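A set of 10 long noncoding RNAs was followed through RNA-seq of A549 cells, a human lung adenocarcinoma line. The transcription factors MYBL2 and FOXM1 had been depleted, or the cells had been given FDI-6, a small molecule used as a FOXM1 inhibitor. The 10 genes were MALAT1, NEAT1, GAS5, SNHG1, SNHG5, SNHG8, SNHG12, SNHG15, ZFAS1 and MIR22HG. They were chosen by name, by matching the Ensembl identifiers of the count rows to these symbols, and they made up 10 of the 58721 gene rows. All 10 had counts in every library and passed the filter on low counts in each of the 4 comparisons.

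The 24 libraries came from 3 experiments. In the first, 4 siMYBL2 and 4 siFOXM1 libraries, from cells given 25 nM siRNA against the named gene, shared 4 siControl libraries. These came from cells given scrambled control siRNA. In the second, 3 siBoth libraries, from cells given siRNAs against both genes, also listed at 25 nM, stood beside 3 siControl_Both libraries. The sample annotation used here gives a concentration only for the siRNAs against MYBL2 and FOXM1. In the third, 3 FDI6 libraries from cells treated with 20 µM FDI-6 for 24 h stood beside 3 control_FDI6 libraries, whose vehicle is not given in the labels. All cells were A549 with no engineered allele, the knockdowns were transient, and poly(A) RNA was captured and sequenced as read pairs. The study's methods call the replicates biological, and the labels do not say whether they were separate cultures, so each p-value measures the spread between these libraries, which may be technical. Levels are CPM, the read pairs on a gene for every 1000000 pairs on all genes of the library, scaled by TMM factors over all 24 libraries.

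Long noncoding RNAs of this set act in different places in the cell. MALAT1 accumulates in nuclear speckles, the stores of splicing factors, and NEAT1 is the scaffold on which paraspeckles are built. The other genes are host transcripts, whose introns or exons carry small RNAs. Introns of GAS5 and the SNHG and ZFAS1 transcripts release small nucleolar RNAs (snoRNAs), which guide chemical modification of ribosomal RNA, while the spliced remainder is usually degraded on ribosomes by nonsense-mediated decay. Several such hosts begin with a C followed by a run of pyrimidines, the 5′ terminal oligopyrimidine (TOP) start that they share with genes for ribosomal proteins. MIR22HG is the host transcript of the microRNA miR-22.

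The first bases of the snoRNA hosts are shown because several such hosts have a TOP start. Each line gives 10 bases before the annotated start and 30 from it, on the transcribed strand of GRCh38, with the unbroken run of C and T from the first base in capitals. GAS5 is given at the start of its GENCODE canonical transcript, and the others at the RefSeq start.
GAS5, chr1:173867960-173867999, minus strand: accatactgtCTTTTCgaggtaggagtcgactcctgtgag
SNHG1, chr11:62855856-62855895, minus strand: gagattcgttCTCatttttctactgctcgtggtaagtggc
SNHG5, chr6:85678704-85678743, minus strand: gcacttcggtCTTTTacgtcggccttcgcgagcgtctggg
SNHG8, chr4:118278752-118278791, plus strand: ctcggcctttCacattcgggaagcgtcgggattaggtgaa
SNHG12, chr1:28581844-28581883, minus strand: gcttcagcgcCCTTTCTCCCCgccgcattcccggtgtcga
ZFAS1, chr20:49278632-49278671, plus strand: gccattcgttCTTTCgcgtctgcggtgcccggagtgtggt

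GAS5, SNHG5, SNHG12 and ZFAS1 started with a C and at least 4 further pyrimidines, with runs of 6, 5, 11 and 5 bases. Of the 35116 RefSeq starts in the table, 4.07% had such a start. SNHG1 also began with a C, but an A broke its run after 3 bases, and in SNHG8 the run was 1 base. RefSeq places the start of GAS5 farther upstream, at an A, so GAS5 lacks such a start on the RefSeq basis used for the others and for the 4.07%. The GENCODE starts of the other hosts were not read. SNHG15 and NEAT1 were not in the table.

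The ends of MALAT1 and NEAT1 are shown because neither long transcript ends in an ordinary poly(A) tail. RNase P cuts in front of a tRNA-like small RNA and leaves an A-rich end that is encoded in the genome. Each line gives 40 bases before the annotated small RNA in lower case and the small RNA in capitals, on the plus strand of GRCh38.
MALAT1, chr11:65506077-65506173: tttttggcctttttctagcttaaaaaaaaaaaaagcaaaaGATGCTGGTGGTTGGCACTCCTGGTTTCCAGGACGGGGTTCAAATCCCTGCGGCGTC
NEAT1, chr11:65445501-65445598: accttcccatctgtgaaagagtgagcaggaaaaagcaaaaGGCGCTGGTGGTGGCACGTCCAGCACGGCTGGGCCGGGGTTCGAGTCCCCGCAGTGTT

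The last 11 bases before the cut, aaaaagcaaaa, were the same in both genes, and the longest run of A was 13 bases in MALAT1 and 5 in NEAT1. The MALAT1 small RNA, of 57 bases, had no count in any library. GENCODE also lists a short NEAT1 transcript, chr11:65422774-65426457, which lies within the first part of the 22743-base one, and counts per gene cannot separate the pair. The capture of such ends on oligo(dT) was not measured here. MIR22HG is represented by the mature products of MIR22, at chr17:1713914-1713935 and chr17:1713952-1713973 on the minus strand, with the seed, bases 2 to 8, in capitals.
miR-22-3p: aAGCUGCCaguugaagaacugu
miR-22-5p: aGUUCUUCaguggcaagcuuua

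Neither seed occurred in any other of the 2370 mature miRNAs in the RefSeq table. The mature miRNAs were not measured, and the MIR22 row within the host had no count. Of 18 snoRNA rows within the hosts, 14 had no count in any library, and the other 4 were SNORD30 with 1 count in all, SNORD99 with 112, SNORD12B with 227 and SNORD12C with 81. None of these rows lay within GAS5. The values below are those of the host gene rows.

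Each library held 16487394 to 30140550 read pairs on genes, and the 10 RNAs took 0.095% to 0.188% of them. MYBL2 averaged 6.38 ± 1.96 CPM (SD, n = 4) in siMYBL2 against 155.5 ± 20.4 in siControl, and FOXM1 averaged 12.2 ± 1.27 in siFOXM1 against 127.5 ± 14.1. In siBoth, MYBL2 averaged 8.45 ± 1.98 (n = 3) against 175.4 ± 18 and FOXM1 13.1 ± 2.59 against 138.1 ± 9.63. FOXM1 was also lower in siMYBL2, at 75.8 ± 14.7. The 6 markers of the epithelial line, KRT8, KRT18, KRT19, CDH1, EPCAM and ALDH1A1, were detected in every group, and their summed level moved with treatment. It was 6401 to 9098 CPM in siMYBL2, 10983 to 13393 in siFOXM1 and 12153 to 14588 in siControl, 5082 to 6018 in siBoth against 8358 to 11312, and 10811 to 11404 in FDI6 against 15740 to 16421. The part of this in the results below was not tested. Of 5 markers of the alveolar type II cell, SFTPC, SFTPB, SFTPA1 and NKX2-1 averaged fewer than 10 counts in every group and NAPSA lay at 0.541 to 3.05 CPM, while the 4 leukocyte markers averaged fewer than 10 counts. The 4 fibroblast markers summed to 5.65 to 9.37 CPM in FDI6 against 18.2 to 21.1, and to 20.5 to 58.8 in the siRNA groups, and the 3 endothelial markers to at most 4.56. In the first experiment the replicate 4 libraries stood apart for these RNAs. NEAT1, GAS5, SNHG1, SNHG8, SNHG12, SNHG15, ZFAS1 and MIR22HG, 8 of 10, had their lowest level in replicate 4 of all 3 groups, which held for 22.3% of the 11531 genes with at least 100 counts on average, and none was highest there in all 3, as 20.7% of genes were. Same-numbered libraries deviated together in the siRNA experiments, with a correlation of 0.55 to 0.91 in each pair, so a fit with the replicate number as a block is given wherever it changes the call of a member. All of these are bulk libraries, in which fewer cells and less RNA per cell cannot be told apart.

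The control libraries showed the resting levels, and the 3 experiments differed in them. MALAT1 averaged 721.2 ± 52.4 CPM in siControl (n = 4), 166.8 ± 14.5 in siControl_Both and 116.6 ± 16.1 in control_FDI6 (n = 3 each). The siControl mean of MALAT1 was 4.32 times that of siControl_Both and 6.19 times that of control_FDI6, and no siControl library overlapped either group. NEAT1 went the other way, at 295.8 ± 69.0 CPM in siControl and 511.7 ± 27.3 in siControl_Both, and its 319.5 ± 30.3 in control_FDI6 overlapped siControl. Every other member was higher on average in siControl_Both than in siControl, by 1.08 times for SNHG5 to 3.18 times for ZFAS1, and only SNHG5 overlapped between them. These ratios carry no test, because experiment and library preparation cannot be told apart.

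**Figure D1:**
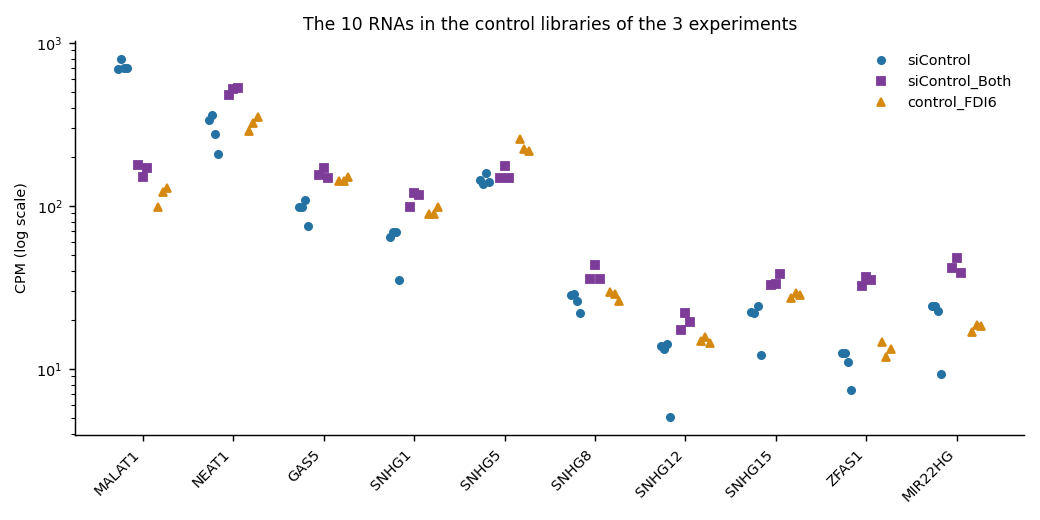
Level of the 10 RNAs in each control library, in CPM on a log axis, for siControl (n = 4, circles), siControl_Both (n = 3, squares) and control_FDI6 (n = 3, triangles). MALAT1 lies between 687.6 and 799.2 CPM in siControl and between 98.4 and 179 CPM in the controls of the other experiments, while most of the snoRNA hosts are lowest in siControl.

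Levels of different genes were compared only per kilobase of the GENCODE canonical transcript. In siControl, GAS5 came first at 123 CPM per kb and SNHG5 second at 110, and their libraries overlapped. MALAT1 followed at 69.1, SNHG1 at 51.3 and NEAT1 at 13, each apart from its neighbours in the order. MIR22HG at 7.02, SNHG15 at 6.75, SNHG12 at 6.18 and SNHG8 at 4.28 overlapped in sequence, and ZFAS1 was last at 2.41. GAS5 and SNHG5 also came first in both other control groups, where MALAT1 stood below SNHG1 and NEAT1. The order depends on the transcript chosen as length, since with all annotated exons of the gene MALAT1 came first in siControl and SNHG5 fell below NEAT1. For NEAT1 the length was that of the 22743-base transcript. GENCODE also lists shorter ones, such as 1 of 3684 bases, and with such a length NEAT1 would stand higher. Counts per gene cannot separate these transcripts, so the place of NEAT1 in the order is uncertain.

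**Figure D2:**
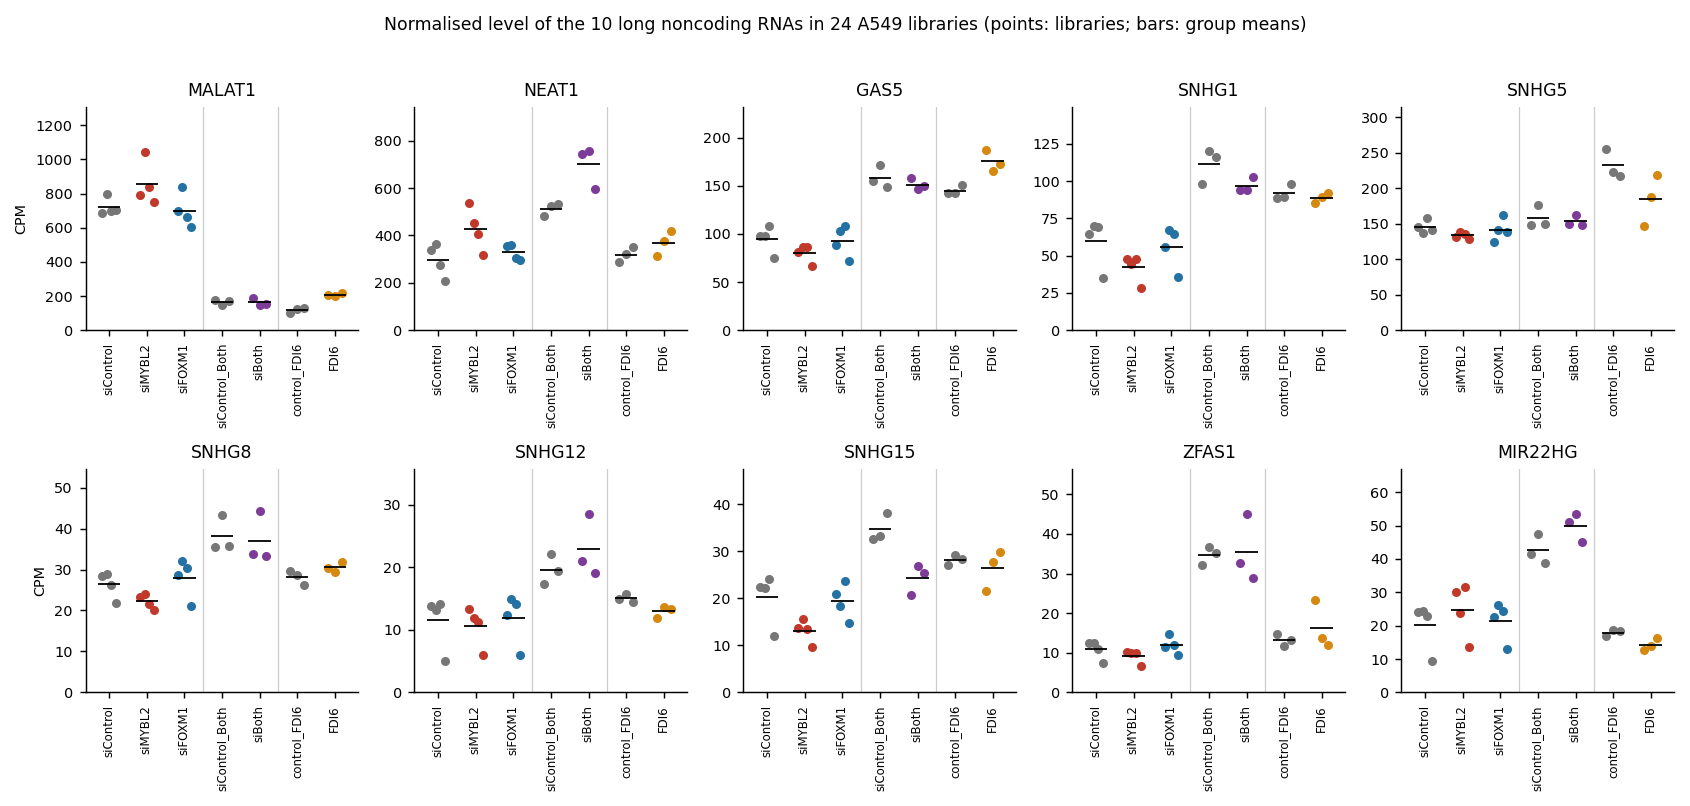
CPM of each RNA in each of the 24 libraries, with 1 panel per gene, an axis from 0 and a bar at each group mean, and vertical lines between the 3 experiments. The FDI6 libraries of MALAT1, at 201.2 to 219.3 CPM, lie above their controls at 98.4 to 129.3, and the lowest point of the single-siRNA groups is replicate 4 for 8 of the 10 genes.

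None of the 10 RNAs passed adjusted p under 0.05 with a fold change over 1.5 after MYBL2 knockdown in the edgeR quasi-likelihood test without a block, where 7.9% of 16065 genes did, and none passed adjusted p alone, as 18.1% did. After FOXM1 knockdown it was also 0 of 10 by either rule, against 0.667% of 15892 genes, or 1.37% by adjusted p alone, and after the double knockdown 0 of 10 against 6.44% of 15812. At an unadjusted p under 0.05 the members numbered 3, 0 and 3 in these comparisons, and DESeq2 called 1, SNHG15, 0 and 0. With FDI-6 edgeR called 1 of 10, MALAT1, against 13.8% of 15240. Several smaller differences nevertheless ran the same way in every same-numbered pair. In siMYBL2, MALAT1 and NEAT1 were higher in 4 of 4 pairs and GAS5, SNHG1, SNHG8, SNHG15 and ZFAS1 lower in 4 of 4, patterns shown by 27% and 29.8% of genes tested. The siMYBL2 and siControl libraries overlapped for each of the 10, while for 23.1% of genes they did not. With the replicate block, 8 of the 10 passed adjusted p under 0.05 in siMYBL2, among 46.7% of all genes, 3 of them higher and 5 lower. No member was on 1 side in every pair in siFOXM1, where 19% of genes were higher and 20.9% lower in each pair, and none was without overlap, as 9.21% were. The median log2 fold change of the 10 was -0.16 in siMYBL2, 0.01 in siFOXM1, -0.01 in siBoth and 0.06 in FDI6, beside 0.01, 0.00, 0.02 and -0.01 over all genes tested.

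**Figure D3:**
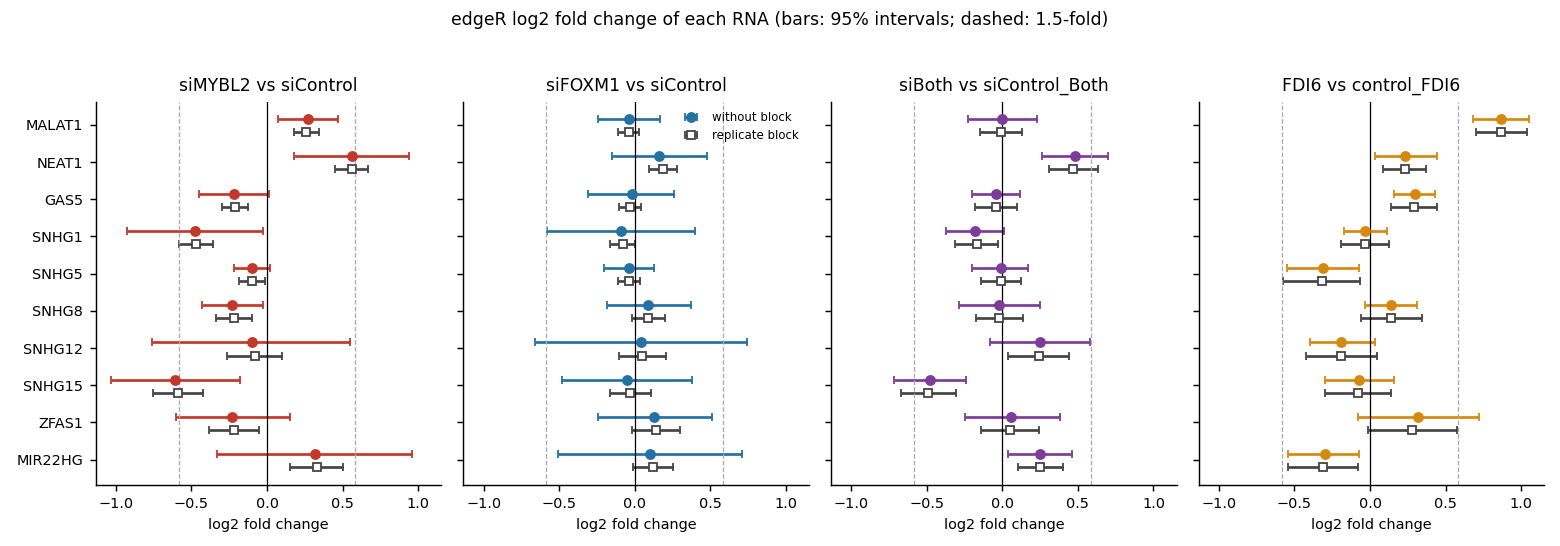
log2 fold change of each RNA in the 4 comparisons from edgeR, without a block (filled circles) and with the replicate block (open squares), with bars for the 95% normal interval and dashed lines at a fold change of 1.5. A bar that leaves out 0 does not mean that the test passed. In siMYBL2, NEAT1 and MALAT1 lie to the right and SNHG15 and SNHG1 to the left, all siFOXM1 values lie near 0, and MALAT1 at 0.87 stands to the right in FDI6.

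NEAT1 had the largest increase of the members in siMYBL2, and it passed the test with the replicate block. It read 538.4, 452.6, 404.3 and 318.4 CPM in siMYBL2 replicates 1 to 4 and 337.3, 362.4, 275.8 and 207.9 in siControl. Every siMYBL2 library lay above the siControl library of its number, but the groups overlapped, since siMYBL2 replicate 4 was below siControl replicates 1 and 2. The edgeR log2 fold change was 0.56 ± 0.19 (SE), which did not pass (adjusted p = 0.0794), and with the replicate block it was 0.56 ± 0.055 with an adjusted p of 2.62e-06, a fold of 1.48 and so just under 1.5. Without siMYBL2 replicate 4 it was 0.67 (adjusted p = 0.0415), and DESeq2 gave an adjusted p of 0.0317.

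In siBoth, NEAT1 read 744.6, 758.2 and 598.0 CPM against 480.4, 523.8 and 530.8 in siControl_Both. All siBoth libraries lay above all controls, which held for 14.7% of genes tested in this direction and 35.3% in either. On the log2 scale the difference of 0.48 ± 0.11 passed adjusted p under 0.05, at 0.0296, with a fold of 1.39, among 12.3% of genes in either direction, but it passed in only 1 of 6 fits that left out a library, with adjusted p between 0.0126 and 0.0854. The block gave 0.47 and an adjusted p of 0.000363. Pairs that did not align were 9.09% to 10.9% in siBoth and 7.68% to 7.92% in its controls, and their part in this result was not tested.

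In siFOXM1 NEAT1 read 356.2, 360.4, 305.6 and 297.0 CPM, higher than the control of its number in 3 of 4 pairs. The estimated log2 fold change was 0.16 ± 0.16 (adjusted p = 0.773), and 0.19 with the block (adjusted p = 0.00415). NEAT1 was the only member to pass with the block there, among 26.3% of genes. In FDI6 it read 312.1, 376.3 and 420.6 CPM against 288.8, 320.4 and 349.4, groups that overlapped. Its log2 fold change of 0.23 ± 0.11 did not pass (adjusted p = 0.0985), and with a correction for GC content and length it was 0.00.

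MALAT1 rose with FDI-6. It read 206.7, 201.2 and 219.3 CPM in FDI6 and 98.4, 121.9 and 129.3 in control_FDI6, so that every treated library was far above every control. Groups did not overlap in this direction for 24.9% of genes tested. The edgeR log2 fold change was 0.87 ± 0.094, a fold of 1.82, with an adjusted p of 3.87e-05, and leaving out any library kept it between 0.76 and 0.95. The correction for GC content and length lowered it to 0.63 (adjusted p = 4.82e-05). Pairs on no annotated gene were also more frequent in FDI6, at 4.86% to 4.93% of pairs against 4% to 4.37% in the controls, and their part in the MALAT1 result was not tested. GENCODE places the antisense transcript TALAM1 over 77.8% of the exonic bases of MALAT1. TALAM1 was not analysed here, and the strand setting of the counting is not given in the sources used here, so reads of the 2 strands cannot be told apart.

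After MYBL2 knockdown MALAT1 read 793.7, 1043, 836.8 and 748.1 CPM against 687.6, 799.2, 695.6 and 702.3. It was higher in each pair, though siMYBL2 replicates 1 and 4 lay below siControl replicate 2. On the log2 scale the difference of 0.27 ± 0.10 did not pass (adjusted p = 0.104), and it was 0.26 ± 0.042 with the block (adjusted p = 0.000199). In siFOXM1 it read 700.5, 836.1, 664.3 and 602.3 CPM, and in siBoth 189.6, 148.2 and 152.7 against 179.0, 150.7 and 170.6. Neither differed from its control, with log2 fold changes of -0.04 (95% interval -0.24 to 0.17) and 0.00 (-0.23 to 0.23).

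**Figure D4:**
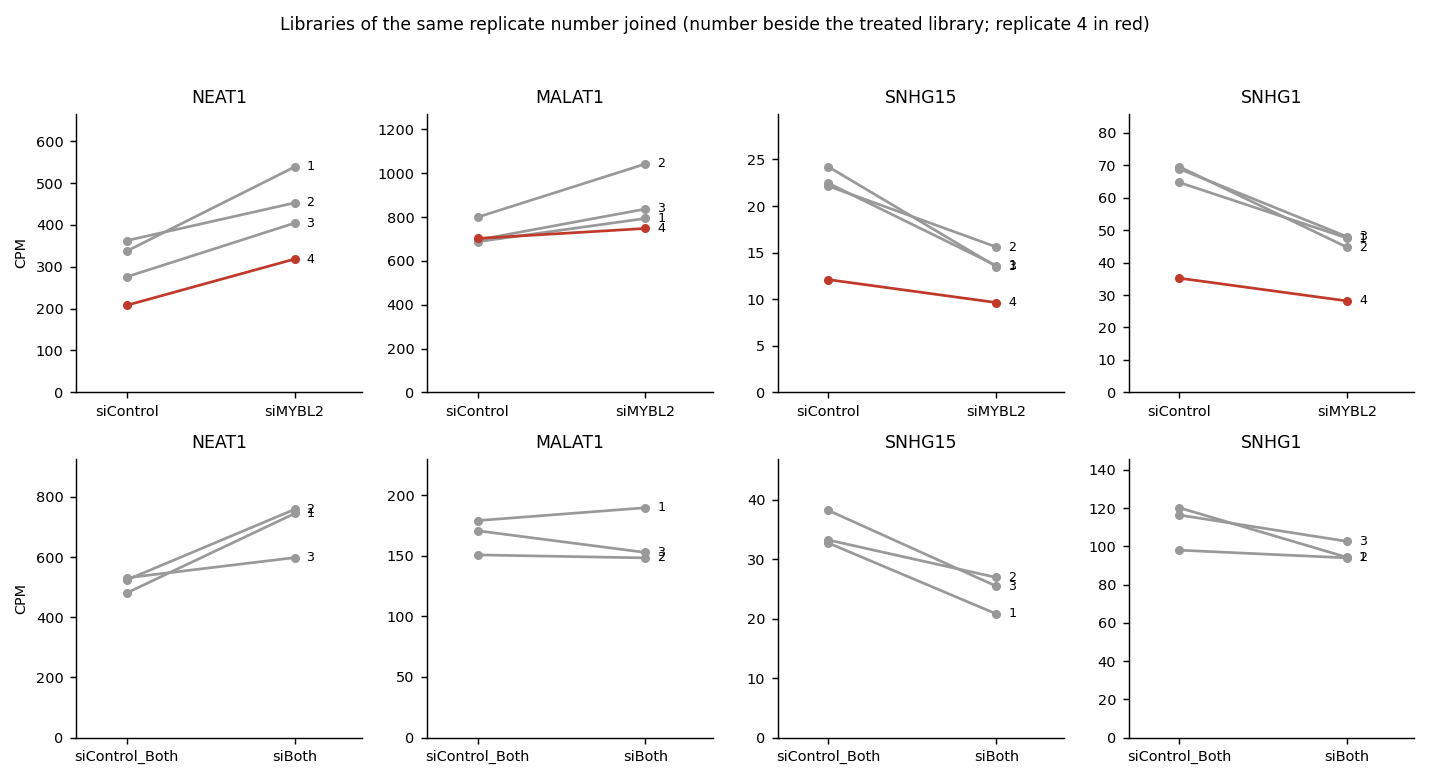
CPM of NEAT1, MALAT1, SNHG15 and SNHG1 in siControl and siMYBL2 (upper row, n = 4 pairs) and in siControl_Both and siBoth (lower row, n = 3 pairs), with lines between libraries of the same replicate number and replicate 4 in red. In the upper row NEAT1 and MALAT1 rise and SNHG15 and SNHG1 fall along every line, and the replicate 4 lines of NEAT1, SNHG15 and SNHG1 lie lowest.

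SNHG15, the host of SNORA9, had the largest decrease of the members in siMYBL2. It read 13.6, 15.6, 13.5 and 9.64 CPM in siMYBL2 and 22.5, 22.1, 24.2 and 12.1 in siControl. The siMYBL2 library was lower in 4 of 4 pairs, and only siControl replicate 4 fell within the siMYBL2 range. The estimated log2 fold change was -0.61 ± 0.22 (adjusted p = 0.0851), and with the block -0.59 ± 0.084 with an adjusted p of 7.15e-05, just past the 1.5-fold threshold, as 12.4% of genes were. It also passed without siControl replicate 4, at -0.80 (adjusted p = 0.00717), without replicate 4 in both groups, a fit chosen after seeing the data, at -0.68 (adjusted p = 0.0025), and in DESeq2 (adjusted p = 0.0293).

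In siBoth, SNHG15 read 20.8, 26.9 and 25.4 CPM against 32.7, 33.2 and 38.2, with all siBoth libraries below all controls, as for 20.6% of genes in this direction. Its log2 fold change of -0.48 ± 0.12 passed adjusted p under 0.05, at 0.0396, with a fold under 1.5, and -0.49 passed with the block (adjusted p = 0.000702). It passed in 0 of 6 fits that left out a library, with adjusted p from 0.0553 to 0.131, and not with upper-quartile scaling (-0.41, adjusted p = 0.0722) or library size alone (-0.38, adjusted p = 0.0917). In siFOXM1 SNHG15 read 20.9, 18.4, 23.8 and 14.9 CPM, inside the siControl range, with a log2 fold change of -0.05 (-0.48 to 0.38). In FDI6 it read 21.6, 27.8 and 29.8 against 27.2, 29.1 and 28.3, and the log2 fold change was -0.07 (-0.30 to 0.16).

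SNHG1, the host of a cluster of box C/D snoRNAs, read 47.6, 44.7, 48.0 and 28.2 CPM in siMYBL2 and 64.7, 69.6, 68.9 and 35.2 in siControl. Replicates 1 to 3 of the groups lay far apart, and siControl replicate 4 was below them all but siMYBL2 replicate 4. The edgeR log2 fold change was -0.48 ± 0.23 (adjusted p = 0.185). It passed with the block, at -0.47 ± 0.059 (adjusted p = 2.5e-05), and without replicate 4 in both groups, at -0.53 (adjusted p = 0.00192). In siBoth SNHG1 was lower in 3 of 3 pairs, at 94.0, 94.2 and 102.6 CPM against 98, 120.2 and 116.4, and the log2 fold change of -0.18 ± 0.097 did not pass with or without the block (adjusted p = 0.0785 and 0.263). It was 55.8 to 67.5 CPM in siFOXM1 replicates 1 to 3 and 35.6 in replicate 4, and 85.5 to 91.7 in FDI6 against 88.6 to 98.2, with log2 fold changes of -0.09 (-0.58 to 0.40) and -0.03 (-0.17 to 0.11).

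GAS5, a host known for its accumulation in growth-arrested cells, moved little in the knockdowns and rose slightly with FDI-6. FDI6 libraries read 187.4, 165.4 and 173.1 CPM and the controls 142.2, 142.3 and 150.8, without overlap. On the log2 scale the difference of 0.30 ± 0.067 passed adjusted p under 0.05, at 0.00491, as 38.9% of genes did, with a fold of 1.23, and it was 0.15 with the GC and length correction (adjusted p = 0.0276). In siMYBL2 it read 81.5, 86.5, 86.5 and 66.8 CPM against 98, 98.3, 108.1 and 75.0, lower in each pair. The estimated log2 fold change was -0.22 ± 0.12 (adjusted p = 0.239), and -0.21 with the block (adjusted p = 0.00134). GAS5 gave -0.02 (-0.31 to 0.26) in siFOXM1 and -0.04 (-0.20 to 0.12) in siBoth. The exons of GAS5-AS1, on the opposite strand, cover 2.68% of the exonic bases of GAS5.

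SNHG5 had the smallest spread of the members in the first experiment, and 31.5% of genes varied less within groups there. It read 128.9 to 138.7 CPM in siMYBL2, 124.1 to 161.9 in siFOXM1 and 137.0 to 158.5 in siControl. Its log2 fold changes were -0.10 (-0.22 to 0.02) in siMYBL2, -0.04 (-0.20 to 0.13) in siFOXM1 and -0.01 (-0.20 to 0.17) in siBoth, and none passed with or without the block. In FDI6 it read 147.2, 187.4 and 218.2 CPM against 255.5, 223.2 and 217.4. Only FDI6 replicate 3 reached the control range. Its log2 fold change was -0.31 ± 0.12 (adjusted p = 0.0668), and it passed with the GC and length correction at -0.57 (adjusted p = 0.00453), in DESeq2 (adjusted p = 0.0282) and with upper-quartile scaling (adjusted p = 0.0359).

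SNHG8, the host of SNORA24, was slightly lower in siMYBL2, at 20.0 to 24.0 CPM against 21.9 to 28.9 in siControl, lower in 4 of 4 pairs. The edgeR log2 fold change was -0.23 ± 0.10 (adjusted p = 0.16), and -0.22 with the block (adjusted p = 0.00842). It was 0.09 (-0.18 to 0.37) in siFOXM1, -0.02 (-0.29 to 0.25) in siBoth and 0.14 (-0.03 to 0.31) in FDI6. PRSS12, on the opposite strand, covers 37.6% of the exonic bases of SNHG8 and averaged 72.7 counts a library.

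SNHG12 and ZFAS1 were low and uneven between libraries. SNHG12, the host of 4 kinds of snoRNA, read 11.3 to 13.4 CPM in siMYBL2 replicates 1 to 3 and 5.94 in replicate 4, and 13.2 to 14.2 in siControl replicates 1 to 3 and 5.08 in replicate 4. Its log2 fold changes were -0.10 (-0.76 to 0.55) in siMYBL2, 0.04 (-0.66 to 0.74) in siFOXM1, 0.25 (-0.08 to 0.58) in siBoth and -0.19 (-0.40 to 0.03) in FDI6. In FDI6 the groups did not overlap, at 11.8, 13.7 and 13.4 CPM against 14.9, 15.7 and 14.4, which was the case for 51.9% of genes in either direction, and the difference did not pass (adjusted p = 0.2).

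ZFAS1 carries the SNORD12 snoRNAs and lies head to head with ZNFX1. It read 10.1, 9.91, 10.0 and 6.78 CPM in siMYBL2 against 12.5, 12.6, 11 and 7.45, lower in each pair. On the log2 scale the difference was -0.23 ± 0.19 (adjusted p = 0.456), and -0.22 with the block, where the adjusted p of 0.05 was just under the threshold before rounding. The intervals were -0.24 to 0.51 in siFOXM1 and -0.25 to 0.38 in siBoth. In FDI6 it read 23.3, 13.7 and 12.1 CPM against 14.7, 11.8 and 13.3. Replicate 1 alone lay above the controls, and without it the log2 fold change went from 0.32 (adjusted p = 0.235) to -0.01.

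MIR22HG, the miR-22 host, read 30.2, 23.8, 31.7 and 13.6 CPM in siMYBL2 and 24.3, 24.4, 22.8 and 9.31 in siControl. It was higher in 3 of 4 pairs and the groups overlapped. The estimated log2 fold change was 0.32 ± 0.33 (adjusted p = 0.552), and 0.33 ± 0.090 with the block (adjusted p = 0.00818). In siBoth it read 51.0, 53.6 and 45 CPM against 41.5, 47.6 and 38.8, higher in each pair, at 0.25 ± 0.11 (adjusted p = 0.158) and 0.25 with the block (adjusted p = 0.0153), as the third member to pass with the block beside NEAT1 and SNHG15, among 34.8% of genes. In FDI6 all libraries, at 12.6, 13.8 and 16.4 CPM, lay below all controls, at 16.9, 18.6 and 18.3, as for 27% of genes in this direction. That difference of -0.30 ± 0.12 on the log2 scale did not pass (adjusted p = 0.0638), and in siFOXM1 the value was 0.10 (-0.51 to 0.71).

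The effects of the 2 knockdowns were also compared directly, siMYBL2 against siFOXM1, which removes the shared controls. SNHG15 was the only member to pass without a block, at -0.57 ± 0.18 on the log2 scale (adjusted p = 0.0221), among 25.3% of 17752 genes. The same difference was 0.29 (0.08 to 0.51) for MALAT1, 0.38 (0.09 to 0.68) for NEAT1, -0.40 (-0.77 to -0.03) for SNHG1 and -0.33 (-0.56 to -0.09) for SNHG8, with adjusted p of 0.0546, 0.067, 0.133 and 0.0501. With the block these and GAS5 and ZFAS1 passed, among 42% of genes. No member passed for the siBoth effect against the siMYBL2 effect, without or with the block, where 0.304% and 6.58% of genes passed. The 95% intervals of these differences were -0.53 to 0.38 for NEAT1 and -0.40 to 0.65 for SNHG15. They were wider for SNHG12 (-0.46 to 1.17) and MIR22HG (-0.81 to 0.69), so differences are not excluded. With the block SNHG1 gave 0.29 (adjusted p = 0.0551) and MALAT1 -0.26 (adjusted p = 0.069). The FDI-6 effect exceeded the siFOXM1 effect for MALAT1, by 0.90 ± 0.17 (adjusted p = 0.000806), among 20% of genes. The siBoth, FDI-6 and single-siRNA effects come from separate experiments with separate controls.

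Within groups the members varied together in the first experiment as long as its replicate 4 libraries were included. The correlation of their deviations from group means, over 12 libraries, had a median of 0.80 over the 45 pairs of members, and reached 0.99 for SNHG1 with SNHG12. In the 12 libraries of the other experiments the median was 0.20. Without the replicate 4 libraries, a choice made after seeing the data, the median of the first experiment was 0.13 over 9 libraries, and SNHG1 with SNHG12 gave 0.64. The points of each correlation share their libraries. SNHG12, MIR22HG, SNHG1 and SNHG15 varied more than 97.3%, 97%, 94.1% and 91.1% of genes in the first experiment. In the FDI-6 experiment ZFAS1 varied more than 98.9% of genes.

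Some of these genes share a promoter region with a coding gene on the other strand. Distances are between the outermost annotated GENCODE starts of the genes. Those starts differ from the starts shown above for GAS5, SNHG1 and ZFAS1. SLC3A2, an amino acid transporter subunit that starts 51 bases from SNHG1, gave -0.26 ± 0.13 in siMYBL2 (adjusted p = 0.192, with the block 0.000185) beside -0.48 for SNHG1. With FDI-6 SLC3A2 fell by 0.19 (adjusted p = 0.0374), where SNHG1 gave -0.03. ZBTB37, a zinc finger gene 800 bases from GAS5, rose with FDI-6 by 0.68 ± 0.095 (adjusted p = 0.000232) beside 0.30 for GAS5. In siMYBL2 ZBTB37 gave 0.43 ± 0.17 (adjusted p = 0.12, with the block 0.00181), where GAS5 gave -0.22. ZNFX1, 248 bases from ZFAS1, gave 0.30 ± 0.073 with FDI-6 (adjusted p = 0.00744) beside 0.32 for ZFAS1. WDR81, 651 bases from MIR22HG, gave -0.08 in siMYBL2 and -0.03 with FDI-6, and passed in no comparison without the block. Searched on both strands of the 300-base RefSeq promoters, TTTGAA, the cell cycle homology element, and TGTTTA, a forkhead core, were each found for 1 of the 8 members in the table, GAS5, and in 15.2% and 12.3% of all promoters. This GAS5 window surrounds the RefSeq start, which lies upstream of the GENCODE start whose sequence is shown above, and the window at the GENCODE start was not searched. AACNG, a MYB core, was found for 5 of the 8, in 77.2% of all promoters.

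Other noncoding snoRNA hosts were measured beside the members. After MYBL2 knockdown 5 of 20 tested were called lower, as 3.52% of all genes were, and 0 higher, with a median log2 fold change of -0.26 beside 0.01 over all genes. The block added SNHG4, named after its value was seen, at -0.66 (adjusted p = 1.54e-05, without the block 0.0718). SNHG17 fell from 57.0 ± 7.36 to 30.4 ± 6.43 CPM (log2 fold change -0.89, adjusted p = 0.00405), SNHG19 from 24.9 ± 3.28 to 15.5 ± 0.424 (-0.66, adjusted p = 0.00291) and SNHG30 from 7.56 ± 0.205 to 4.87 ± 0.777 (-0.61, adjusted p = 0.0136). The other 2, named after their values were seen, were SNHG3 (-0.83) and SNHG26 (-1.26), the latter at 0.732 CPM in siMYBL2. In siFOXM1 edgeR and DESeq2 called 0 of 20, as did edgeR with the block, which called 2.52% of genes, and 1 had an unadjusted p under 0.05. In siBoth 1 was lower, also with the block, which called 11.7% of genes there, SNHG26 at 1.68 ± 0.051 against 4.05 ± 0.547 CPM (-1.24, adjusted p = 0.00711). With FDI-6 4 of 20 were called, beside 13.8% of genes. Of these 3 were lower, SNHG19 (-0.87), SNHG10 (-0.81) and, named after its value was seen, SNHG21 (-1.31), and 1 was higher, EPB41L4A-AS1, at 18.9 ± 0.106 against 12 ± 0.194 CPM (0.68, adjusted p = 0.000261).

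The machinery around these RNAs was tested in the same fits. Of 13 translation genes with TOP starts, edgeR and DESeq2 called 0 in each comparison, with 6, 1, 5 and 7 at an unadjusted p under 0.05 in siMYBL2, siFOXM1, siBoth and FDI6. Their median log2 fold change in siMYBL2 was -0.18, beside 0.01 over all genes. At adjusted p alone 4 of the 13 were lower in siMYBL2, as 9.53% of genes were, and with the block 11 of 13, as 23.1% were. By that rule with the block, 9 of 16 snoRNP proteins and assembly factors, 7 of 16 decay factors, 9 of 16 paraspeckle proteins and 10 of 14 speckle proteins were also lower in siMYBL2. Of 16 snoRNP proteins and assembly factors, 1 was called, only with FDI-6, beside 13.8% of genes. This was NHP2, a box H/ACA protein, lower at 66.3 ± 14.1 against 102.5 ± 10.1 CPM (-0.60, adjusted p = 0.00521). Of 16 nonsense-mediated decay factors, 1 was called, also only with FDI-6 and beside the same 13.8%. This was SMG1, the kinase that phosphorylates UPF1, higher at 218.8 ± 13.9 against 120.4 ± 8.48 CPM (0.88, adjusted p = 5.41e-06). SMG1 has near-identical pseudogene copies, so its counts are uncertain. Of 5 coding transcripts known as decay targets, 1 was called, GADD45A, higher with FDI-6 at 46.1 ± 6.78 against 30.1 ± 1.61 CPM (0.64, adjusted p = 0.000958), beside 13.8% of genes. At adjusted p alone 2 of the 5 were higher and 1 lower with FDI-6, as 21% and 17.9% of genes were. In siMYBL2 0 of the 5 were called, but all 5 had a negative log2 fold change, with a median of -0.46. There 2 of the 5 were lower at adjusted p alone and 3 with the block, beside the 9.53% and 23.1% given above.

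For proteins of the 2 nuclear bodies, 1 of 16 paraspeckle proteins was called in siMYBL2, beside 7.9% of genes, and 1 of 14 speckle proteins in siBoth, beside 6.44%. The paraspeckle protein HNRNPH3 fell in siMYBL2 from 172.4 ± 11.8 to 111.3 ± 13 CPM (-0.61, adjusted p = 0.0021), and the list's median was -0.18 in siMYBL2, -0.05 in siFOXM1, -0.20 in siBoth and -0.14 in FDI6. The splicing factor SRSF1, of the speckle list, fell in siBoth from 57.8 ± 8.20 to 37.3 ± 7.48 CPM (-0.60, adjusted p = 0.045). In a list of 11 genes for ELAC2 and the subunits of RNase P, whose cut is described above, 1 was called in siMYBL2, beside 7.9% of genes. This was RPP25, which fell from 38.3 ± 2.95 to 24.3 ± 3.76 CPM (-0.64, adjusted p = 0.00446).

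The genes whose pattern was most like a member's were found by Pearson correlation over 24 libraries of log2 CPM minus the mean of the library's own controls, among 11369 genes with at least 100 counts on average. For MALAT1 they were FGD6 (0.941), LYST (0.939) and ITGA2 (0.924), and for NEAT1 NDEL1 (0.895), SDC4 (0.859) and CDKN1A (0.851). For GAS5 they were PDSS1 (0.914), GREM1 (0.906) and AMOTL2 (0.891). For ZFAS1 they were POLR3C (0.800), PUM3 (0.795) and DNTTIP2 (0.788), and for MIR22HG CPA4 (0.930), CTNNB1 (0.901) and CSRP1 (0.893). The 24 points share libraries and controls, and these values describe likeness only. They include the replicate 4 libraries, where NEAT1, GAS5, ZFAS1 and MIR22HG were lowest in each group of the first experiment. The part of those libraries in the correlations was not tested.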

How the data were processed

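The authors trimmed reads with Trim Galore, aligned them to hg38 with STAR and used HTSeq to count pairs per gene of GENCODE V29. The authors deposited these raw counts without normalization. The strand setting is not given in the sources used here, and pairs that fit several genes are left out, which lowers genes with overlapping exons. The labels mention 3 replicates a condition, and the single-siRNA groups have 4 libraries.

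Groups and replicate numbers came from sample labels. Identifiers were matched to GENCODE V44, where 58207 of 58721 were found. Counts were tested with edgeR 4.0.16 in R 4.3.3 (TMM, filterByExpr, quasi-likelihood F-test, Benjamini-Hochberg adjustment over all genes tested), each treatment against its own control, and 3 differences between effects in a fit of all 24 libraries. To be called, a gene needed an adjusted p under 0.05 together with a change of more than 1.5-fold. Intervals are 95% normal intervals from the standard error. They are narrower than the F-test implies, so an interval can leave out 0 where the unadjusted p is above 0.05. For SNHG1 in siMYBL2 the interval was -0.93 to -0.03 and the unadjusted edgeR p was 0.0659. Alternatives were other scalings, DESeq2 1.42.0, no filter, the replicate number as a block, a spline correction for GC content and length, and leaving out libraries. The fits were tested on simulated data. No 2 libraries of a group agreed within sampling noise, with a chi-square per gene of 3.57 or more. Same-numbered libraries correlated above 0.1 in every pair of the 3 siRNA comparisons (0.55 to 0.91) but not with FDI-6 (-0.30 to 0.17), where the number is only a name.

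The members and gene lists were chosen with earlier results of these data known. All 10 members are described. From each list, up to 3 called genes with the lowest adjusted p and at least 50 counts on average are named. Opposite-strand neighbours start within 2 kb of a member's start, by the outermost GENCODE start of each gene.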

Additional observations from a re-analysis of the deposited data

Results flagged for a closer look

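In the first experiment, 7 of the 30 member and group combinations of 4 libraries had a library far from the others. For any given combination, chance gives about 1 in 20. The 30 combinations share the same 12 libraries, in which the members' deviations correlated with a median of 0.80, so they are not independent. The 7 can therefore not be read as an excess over that rate. The gap to the nearest library, as a share of the group's whole range, was 0.859 for SNHG1, 0.897 for SNHG12, 0.829 for SNHG15 and 0.893 for MIR22HG in siControl replicate 4. In siMYBL2 replicate 4 it was 0.835 for SNHG1 and 0.949 for ZFAS1. Each of these 6 values was the lowest of its group. MALAT1 in siControl replicate 2 was the highest of its group, with a gap of 0.868.

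The effect on SNHG15 differed between MYBL2 and FOXM1 knockdown by -0.57 on the log2 scale (edgeR adjusted p = 0.0221). Its 4 siMYBL2 libraries read 9.64 to 15.6 CPM and its siFOXM1 libraries 14.9 to 23.8. The effect of FDI-6 on MALAT1 exceeded that of FOXM1 knockdown by 0.90 (edgeR adjusted p = 0.000806). The FDI-6 and FOXM1 knockdown effects on MALAT1 come from separate experiments with separate controls, so experiment and treatment cannot be told apart there. The SNHG15 difference lies within the first experiment.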

How the results depend on the processing

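Over all alternatives, 963 of 1130 member values kept their direction and their side of adjusted p 0.05. Another 68 newly passed, 16 no longer passed, and 83 changed sign, none of which passed before or after. The cause was not tested. The number of libraries and the uneven replicate 4 limit what these fits can show. The lowest count of a member in any library was 120 for SNHG12 and 176 for ZFAS1.

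In siMYBL2, members called went from 0 to 1, SNHG15, with DESeq2, the replicate block, the block with the GC and length correction, and, chosen after seeing the data, without replicate 4 in both groups. Genes called went from 1269 to 1991 with the block and 1986 with the block and correction. In siFOXM1 they went from 106 to 163 with DESeq2, 401 with the block and 389 with both. In siBoth they went from 1019 to 1545 without the filter, 1849 with the block and 1666 with both. In FDI6, where the numbers do not pair the samples, the block with the correction called 1315 genes in place of 2098 and 2 members, MALAT1 and SNHG5, in place of 1, and the block alone let NEAT1 pass (adjusted p = 0.0357). For the FDI6 effect minus the siFOXM1 effect, the block let GAS5 (0.32) and MIR22HG (-0.44) pass. Other member calls that the block changed stand beside their results.

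Sign changed in siFOXM1 with library size alone for MALAT1 (0.00) and GAS5 (0.01), and without replicate 4 in both groups for MALAT1 (0.03). In siBoth, MALAT1, GAS5, SNHG5 and SNHG8 gave 0.07, 0.04, 0.06 and 0.06 with upper-quartile scaling, 0.10, 0.06, 0.09 and 0.09 with library size alone, 0.12, 0.05, 0.13 and 0.14 with the correction, and 0.12, 0.06, 0.13 and 0.13 with the correction and block. Upper-quartile scaling and library size alone moved the median of all genes there to 0.09 and 0.12. In FDI6, SNHG1 gave 0.01 with library size alone, SNHG8 -0.12 with the correction and with the correction and block, SNHG15 0.00 with the correction and NEAT1 -0.02 with the correction and block. In the FDI6 effect minus the siFOXM1 effect, upper-quartile scaling gave -0.01 for SNHG1 and -0.02 for SNHG8.

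Leaving out 1 library at a time gave 0 to 2 members called in siMYBL2, 56 to 115 genes called in siFOXM1, 587 to 1097 in siBoth, and 0 to 1 members called for siMYBL2 minus siFOXM1. Values that changed sign ranged from -0.36 to 0.09 for SNHG12 in siMYBL2. In siFOXM1 they ranged from -0.13 to 0.03 for MALAT1, -0.12 to 0.09 for GAS5, -0.27 to 0.08 for SNHG1, -0.11 to 0.02 for SNHG5, -0.20 to 0.26 for SNHG12, -0.23 to 0.07 for SNHG15, -0.01 to 0.23 for ZFAS1 and -0.14 to 0.28 for MIR22HG. In siBoth they ranged from -0.13 to 0.06 for MALAT1, -0.08 to 0.01 for GAS5, -0.06 to 0.07 for SNHG5, -0.17 to 0.08 for SNHG8 and -0.15 to 0.17 for ZFAS1. In FDI6 they ranged from -0.06 to 0.02 for SNHG1, -0.18 to 0.06 for SNHG15 and -0.01 to 0.49 for ZFAS1. For siMYBL2 minus siFOXM1 they ranged from -0.13 to 0.00 for SNHG5 and -0.38 to 0.04 for SNHG12, and for the siBoth effect minus the siMYBL2 effect from -0.19 to 0.06 for NEAT1 and -0.26 to 0.17 for MIR22HG. For the FDI6 effect minus the siFOXM1 effect they ranged from -0.05 to 0.20 for NEAT1, -0.11 to 0.24 for SNHG1, -0.07 to 0.12 for SNHG8, -0.45 to 0.02 for SNHG12, -0.14 to 0.15 for SNHG15 and -0.15 to 0.38 for ZFAS1.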

Other observations

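Of 19 further long noncoding RNAs tested with FDI-6, 2 were called higher and 1 lower, 3 of 19 beside 13.8% of all genes, with a median log2 fold change of 0.17 beside -0.01. MEG3, an imprinted transcript, rose from 24.4 ± 2.96 to 51.5 ± 8.06 CPM (SD, n = 3 each; log2 fold change 1.10, edgeR adjusted p = 5.46e-05), and LINC-PINT from 2.81 ± 0.404 to 4.39 ± 0.335 CPM (0.67, adjusted p = 0.016). The lower one, named after its value was seen, was H19 (-2.80, at 0.251 against 1.81 CPM). Of 8 other microRNA host genes tested, MIR100HG, the host of miR-100, rose from 7.30 ± 0.668 to 15.3 ± 3.13 CPM (1.08, adjusted p = 0.00025). MIR193BHG fell from 10.4 ± 1.09 to 6.31 ± 0.984 CPM (-0.70, adjusted p = 0.00358), and MIR210HG, named after its value was seen, gave -2.12 at 0.417 against 1.87 CPM. Without the block, edgeR called 0 of these hosts in siMYBL2, where 2 had an unadjusted p under 0.05 and DESeq2 called 1, and 0 of 7 in siBoth, where 1 had an unadjusted p under 0.05 and DESeq2 called 0. With the block MIR17HG (-0.93, adjusted p = 0.000435) and MIR503HG (-0.70, adjusted p = 0.00361) were called lower in siMYBL2 and MIR17HG (-0.81, adjusted p = 0.00953) in siBoth, all named after their values were seen.

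In siBoth, LINC00467 rose from 6.12 ± 0.467 to 9.15 ± 0.480 CPM (n = 3 each, log2 fold change 0.61, edgeR adjusted p = 0.027). It was the 1 called of 18 long noncoding RNAs tested there, beside 6.44% of genes. In siMYBL2 1 of 20 was called, beside 7.9% of genes, HOTAIR, named after its value was seen (1.06, at 0.95 against 0.463 CPM). The block, which called 12.4% of genes, added MIAT (0.69, adjusted p = 0.0392) and HOTAIRM1 (0.72, adjusted p = 0.0188) as higher and H19 (-0.81, adjusted p = 0.0171) as lower. In siFOXM1 edgeR and DESeq2 called 0 of 20 without the block, and 3 had an unadjusted p under 0.05. The block called HOTAIR higher there (0.88, adjusted p = 0.0233), beside 2.52% of genes. These were also named after their values were seen.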
